A study of Homo sapiens with 6 samples.

Results

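A set of 10 genes of the cornified envelope and of its filaggrin family was looked up in RNA-seq libraries of HCT116, a human cell line established from a colorectal carcinoma, with wild-type p53. The members (FLG, HRNR, IVL, TGM1, TGM2, SPRR1A, SPRR1B, SPRR2A, SFN and CNFN) were taken by gene symbol, and all 10 had 1 row each among the 27942 genes of the deposited count table. Cells were left untreated (NT, 3 libraries) or exposed to 0.5 µM oxaliplatin, a platinum compound that damages DNA, for 24 h (OXA, 3 libraries). Replicates are numbered 1 to 3 in each group by the labels, which do not say whether the cultures were separate. The list was put together with the NT and OXA counts of these genes already known, so the comparison of their counts is given as a description and carries no p-value.

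The cornified envelope is the protein shell that replaces the plasma membrane of keratinocytes as they die at the surface of the skin. Transglutaminases cross-link precursors such as involucrin and the small proline-rich proteins into this shell, and filaggrin, released from a long precursor, bundles the keratin filaments inside it. Most precursor genes lie side by side in the epidermal differentiation complex on the long arm of human chromosome 1. A simple epithelium such as that of the colon does not form a cornified envelope.

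The libraries held between 32979521 and 40967880 raw counts. Of 7 markers of colon epithelium, 6 passed the filter on low counts. EPCAM lay between 8451 and 10828 raw counts per library and CDX2, an intestinal transcription factor, between 434 and 599. VIL1 was lower, at 39 to 95, and CDX1 was at 0 in all 6 libraries. Of 10 markers of other cell types, 4 passed the filter (VWF, COL1A1, PMEL and MITF), the highest being COL1A1 with 107 to 273. Of 11 keratin genes of stratified epithelia, 10 had at most 13 raw counts in any library, among them the basal keratin genes KRT5 and KRT14 with at most 6 and 1, and TP63 had at most 3. The suprabasal keratin gene KRT10 was the exception, with 480 to 782 raw counts per library. NT replicate 1 stood apart. Among the quartile of tested genes with the highest exon GC content it lay a median of 0.73 below NT replicates 2 and 3 on the log2 scale, against 0.23 above them in the quartile with the lowest. It had the lowest normalized count of its group in 5 of the 6 members that passed the filter on low counts, as OXA replicate 1 did in its own group.

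The stretches upstream of the start sites are shown first, because members with counts and members at 0 can be compared there. RefSeq gave a promoter for 8 of the 10 members, TGM1 and TGM2 being the others. The 250 bases before the start of FLG, HRNR and SFN, whose groups did not overlap, and of IVL and SPRR1A, which were at or near 0, read 5′ to 3′ on the strand of the gene (GRCh38.p14), with capitals for the AP-1 motif TGANTCA on either strand and for the TATA box TATAAA on the gene's strand:
FLG (chr1:152325240-152325489, minus strand): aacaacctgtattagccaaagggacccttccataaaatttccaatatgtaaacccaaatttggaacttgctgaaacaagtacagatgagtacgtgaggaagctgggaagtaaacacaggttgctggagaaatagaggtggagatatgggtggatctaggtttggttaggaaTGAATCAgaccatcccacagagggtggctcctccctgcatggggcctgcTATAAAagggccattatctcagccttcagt
HRNR (chr1:152224194-152224443, minus strand): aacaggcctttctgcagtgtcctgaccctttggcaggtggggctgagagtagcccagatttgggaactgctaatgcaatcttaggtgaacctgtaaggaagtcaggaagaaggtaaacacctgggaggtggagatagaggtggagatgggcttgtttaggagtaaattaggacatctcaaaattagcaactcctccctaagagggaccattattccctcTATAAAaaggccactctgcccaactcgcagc
SFN (chr1:26862899-26863148, plus strand): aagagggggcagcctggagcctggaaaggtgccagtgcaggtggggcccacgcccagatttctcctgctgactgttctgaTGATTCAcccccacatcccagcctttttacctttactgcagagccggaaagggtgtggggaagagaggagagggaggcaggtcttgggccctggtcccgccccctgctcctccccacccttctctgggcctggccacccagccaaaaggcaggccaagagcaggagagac
IVL (chr1:152908296-152908545, plus strand): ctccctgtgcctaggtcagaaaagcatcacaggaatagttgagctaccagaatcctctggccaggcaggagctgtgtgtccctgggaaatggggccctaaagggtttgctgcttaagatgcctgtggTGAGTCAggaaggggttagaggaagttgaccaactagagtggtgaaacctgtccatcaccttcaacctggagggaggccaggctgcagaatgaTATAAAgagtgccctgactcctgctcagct
SPRR1A (chr1:152983831-152984080, plus strand): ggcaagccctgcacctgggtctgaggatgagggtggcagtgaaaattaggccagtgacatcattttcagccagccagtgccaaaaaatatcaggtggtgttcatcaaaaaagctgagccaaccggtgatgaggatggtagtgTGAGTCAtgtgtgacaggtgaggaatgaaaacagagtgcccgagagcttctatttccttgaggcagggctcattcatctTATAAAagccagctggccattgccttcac

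The TATA box letters stood in 5 of the 8 promoters, those of FLG, HRNR, IVL, SPRR1A and SPRR2A, each between 29 and 31 bases before the start, and in 6.8% of 35116 promoters of the same length. The AP-1 letters stood in 6 of the 8, those of FLG, IVL, SPRR1A, SPRR1B, SPRR2A and SFN, and in 6.57% of all promoters. HRNR thus had the TATA box without the AP-1 letters, and SFN the reverse. The GC box GGGCGG, searched on both strands, was found in SFN and CNFN and in 42.6% of all promoters. A single p53 half-site was matched in HRNR and in SPRR1B, and in 5.57% of all promoters. Only these 250 bases were searched, so the lack of a match, as in SFN, says nothing about sites elsewhere. With any middle base allowed in the AP-1 letters, they and the TATA letters did not separate the members with counts from the silent ones. IVL, SPRR1A and SPRR2A carried both, as FLG did. The middle base itself differed on the gene's strand, a point seen after the search. It was A in FLG, T in SFN and G in IVL, SPRR1A and SPRR2A, and SPRR1B had a match with G and another with A. The letters describe the sequence only, and binding was not measured.

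FLG, which encodes profilaggrin, the precursor of the filament-bundling protein, was close to the detection limit in untreated cells and clearly present after oxaliplatin. It had 2, 4 and 5 raw counts in NT replicates 1 to 3 and 38, 45 and 67 in OXA replicates 1 to 3. The treated libraries were all far above the untreated ones. In these bulk samples, more cells with FLG RNA and more FLG RNA per cell cannot be told apart. After scaling for library size, FLG had 3.59 ± 1.35 normalized counts in NT (mean ± SD, n = 3) against 49.96 ± 9.32 in OXA. The ratio of the summed counts, scaled the same way, was 13.97, with an exact 95% interval from 7.59 to 28.6 that covers counting error only. The fitted log2 fold change of 3.75 (standard error 0.37) was the fifth of the 13727 genes tested in order of size. Within same-numbered pairs of libraries the fold was 20.1, 11.8 and 13.1.

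HRNR encodes hornerin, a fused-type S100 protein built of repeats like filaggrin, and it followed FLG closely. Its raw counts were 0, 3 and 6 in NT and 31, 49 and 54 in OXA. No library of one group reached into the range of the other. The normalized level was 2.86 ± 2.75 counts untreated and 45.03 ± 10.3 treated (n = 3 each). The ratio of summed counts was 15.3 (exact 95% interval from 7.80 to 34.1, counting error only), and the fitted log2 fold change was 3.88 (standard error 0.60), rank 2 of 13727. Leaving out NT replicate 3, the library with the most HRNR counts of its group, moved this estimate to 4.73. In each group the replicate with the lowest count was number 1 for both genes.

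Both genes passed the filter on low counts only through the OXA libraries, so a large difference was a condition of their being tested. Their ranks among the tested genes carry the same limit. FLG (chromosome 1 of GRCh38 from 152302165 to 152325239) and HRNR (from 152212076 to 152224193) lie on the minus strand, and each has 3 exons in its canonical transcript, the last of which is made of tandem repeats. Both are spanned by FLG-AS1, a non-coding gene on the plus strand that was not analysed here. The libraries were prepared with a strand-preserving kit, but the strand setting of the counting is not given in the sources used here. Without strand, reads of these genes and of the antisense gene cannot be told apart.

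**Figure D1:**
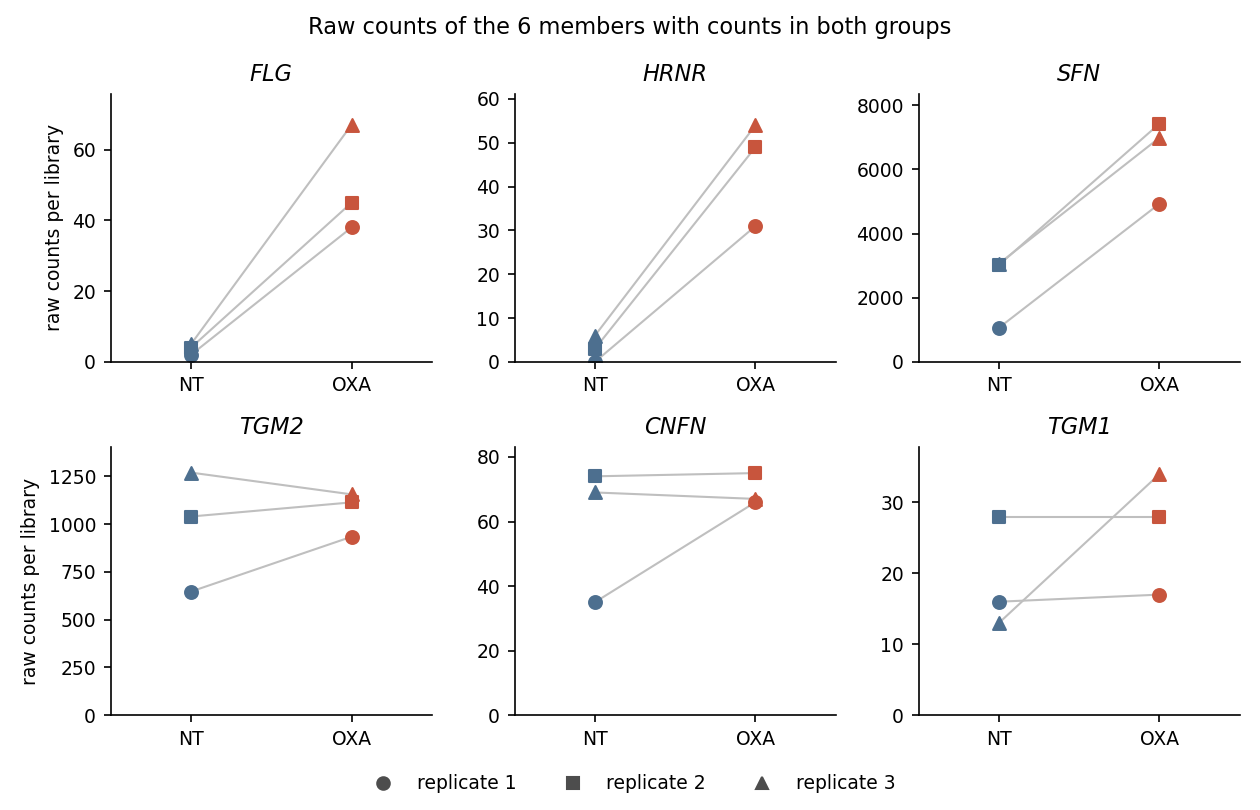
Raw counts per library (y axis, from 0, own scale in each panel) of the 6 members with counts in both groups, in untreated (NT, blue) and oxaliplatin-treated (OXA, red) cells; symbols give the replicate number and grey lines join libraries of the same number. FLG goes from 2 to 5 counts up to 38 to 67, and SFN from 1063 to 3062 up to 4931 to 7428, whereas TGM2, CNFN and TGM1 overlap between the groups.

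SFN encodes 14-3-3 sigma, an adaptor protein first known from stratified epithelia that holds mitotic cyclin-kinase complexes in the cytoplasm and is a classic target of p53. It was by far the most abundant member. The 3 NT libraries had 1063, 3021 and 3062 raw counts and the 3 OXA libraries 4931, 7428 and 6988. The groups did not overlap, but NT replicate 1 was far below its group's other libraries. Same-numbered pairs gave folds of 4.91, 2.58 and 2.23. The log2 fold change was 1.49 (standard error 0.36), and 1.14 without NT replicate 1. SFN is a single-exon gene with 62.8% GC, within the quartile of genes in which NT replicate 1 was low as a whole, and the part of GC content in its difference was not tested.

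The cross-linking enzymes showed no comparable separation. TGM1, the membrane-anchored transglutaminase of keratinocytes, had 16, 28 and 13 raw counts untreated and 17, 28 and 34 after oxaliplatin. After scaling, OXA replicates 2 and 3 lay just above the highest untreated library, at 30.5 and 30.3 normalized counts against 29.1 in NT replicate 2, and OXA replicate 1 lay within the untreated range. Its log2 fold change was 0.48 with a standard error of 0.40, and it ranged from 0.19 without NT replicate 3 to 0.88 (standard error 0.40) without NT replicate 2. TGM2, the tissue transglutaminase found in many cell types, had 647, 1040 and 1270 raw counts untreated and 934, 1114 and 1156 after oxaliplatin. The OXA libraries fell inside or just above the range of NT. The log2 fold change of TGM2 was 0.17 (standard error 0.21), and its sign turned, to -0.046, without NT replicate 1. TGM2 overlaps RPRD1B on the other strand, so their reads carry the same doubt about strand. Of the other 6 transglutaminase genes of the table none passed the filter on low counts. TGM5, an epidermal transglutaminase, had 0 counts in each NT library and 7, 4 and 3 in OXA. Scaled for library size, the OXA sum was 4.78-fold a floor of 3 counts over the NT group. The counting error of the OXA counts is left out of this value, so it is no lower bound.

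The envelope precursors proper were silent or nearly so in both conditions. IVL, which encodes involucrin, the early scaffold of the envelope, had 0 counts in NT and 3, 0 and 0 in OXA. SPRR1B had 0 in NT and 0, 2 and 0 in OXA, and SPRR1A and SPRR2A had 0 in all 6 libraries. These values are at or under the floor of 3 counts, so no fold is given. A count of 0 in the 107809644 counts of NT allows a level of up to 0.0278 CPM, the count scaled for library depth. The small proline-rich genes are close copies of each other, and how the counting treated reads shared among them is uncertain. CNFN, which encodes cornifelin, a small envelope component, was present at a low level, with raw counts of 35, 74 and 69 untreated and 66, 75 and 67 treated. Apart from NT replicate 1 all CNFN libraries lay within 1 narrow range, and the log2 fold change of 0.27 (standard error 0.30) became 0.020 without that library.

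**Figure D2:**
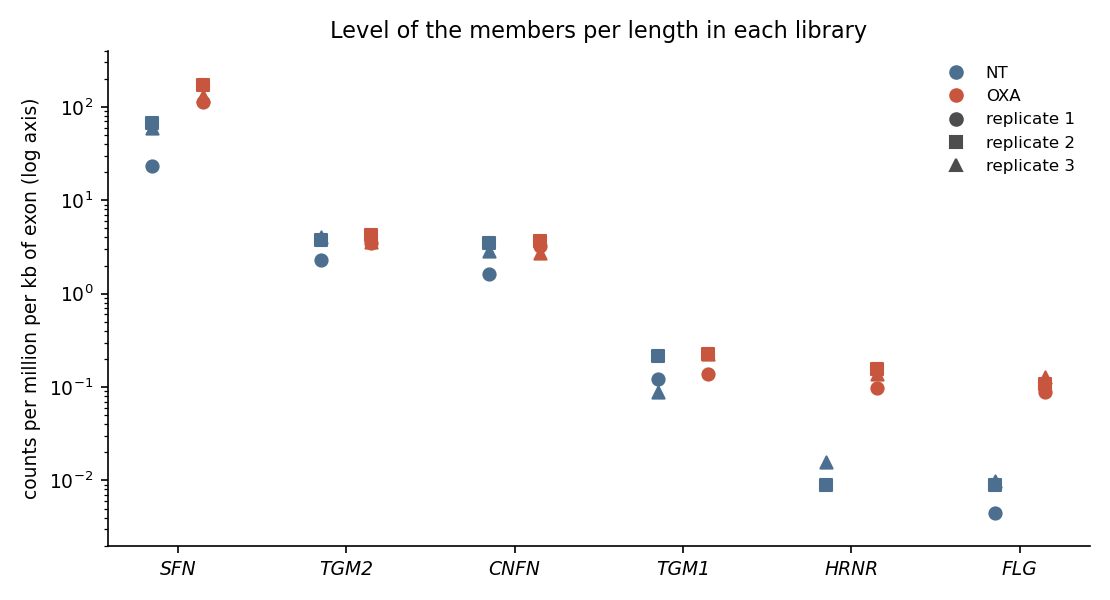
CPM per kb of merged exon (y axis, log scale) of 6 members in each NT (blue) and OXA (red) library, with symbols for the replicate number; the NT library with 0 HRNR counts cannot be drawn on a log axis. SFN lies highest in both groups, and FLG and HRNR move from the bottom of the scale towards the level of TGM1, with means still below it.

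Per length of exon, the order of the levels in untreated cells was SFN, TGM2, CNFN, TGM1, HRNR and FLG. SFN stood at 49.7 ± 23.4 CPM per kb (SD, n = 3) in NT, TGM2 at 3.38 ± 0.94 and CNFN at 2.65 ± 0.95, so that the latter 2 did not differ beyond their spread. TGM1 followed at 0.14 ± 0.067, and HRNR and FLG, which also did not differ beyond their spread, at 0.0083 ± 0.0079 and 0.0078 ± 0.0029. In OXA, SFN was at 139 ± 30.0, HRNR at 0.13 ± 0.030 and FLG at 0.11 ± 0.020. TGM1 was at 0.20 ± 0.052 in OXA, so the means of FLG and HRNR were still below it but nearer than in NT. How the counting treated reads from the tandem repeats of FLG and HRNR is not known, so their levels per length carry that doubt.

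Of the 10 members, 6 passed the filter on low counts and could be tested. The threshold used for all genes was an adjusted p under 0.05 by edgeR's quasi-likelihood test. At it, 2 of the 6 were higher in OXA (FLG and HRNR) and 0 lower, where 2.78% of all tested genes were called higher and 2.29% lower. The groups were apart, with all treated libraries higher, in 3 of the 6 (FLG, HRNR and SFN) and in 14.5% of tested genes. Since these values were known when the list was made, and FLG and HRNR entered the fit only through their OXA counts, these counts are a description and no test of the members. With the replicate number as a block, which raises the share of genes called higher to 12.1%, SFN passed this threshold as well (log2 change with the block 1.59). It also passed without NT replicate 1, by DESeq2 and without a filter on low counts. The calls were not equally stable. Of the 6 fits that left out 1 library, FLG passed in 6, HRNR in 2 (without NT replicate 1 or 3) and SFN in 1.

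Along the epidermal differentiation complex, the counts gathered in a small stretch. From TCHHL1 to SPRR2G, 1066750 bases of chromosome 1 (152084141 to 153150890), the table has 42 protein-coding genes, of which 31 had 0 counts in all 6 libraries. Together the 42 genes had 38 counts in NT and 359 in OXA, and FLG and HRNR made up 79.1% of the latter. The genes on either side of the pair did not show the same level. FLG2, next to FLG, had 1 count in all, and RPTN, next to HRNR, had 1 count in each group. TCHH, which encodes trichohyalin of the hair root sheath, had 3, 5 and 5 raw counts untreated and 15, 20 and 7 after oxaliplatin, a ratio of summed counts of 3.31 with an exact 95% lower bound of 1.74 (counting error only). Among the late cornified envelope genes, LCE1E had 0 counts in NT and 4, 8 and 2 in OXA. The scaled OXA sum was 4.78-fold the same floor, again without the counting error of the OXA counts.

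**Figure D3:**
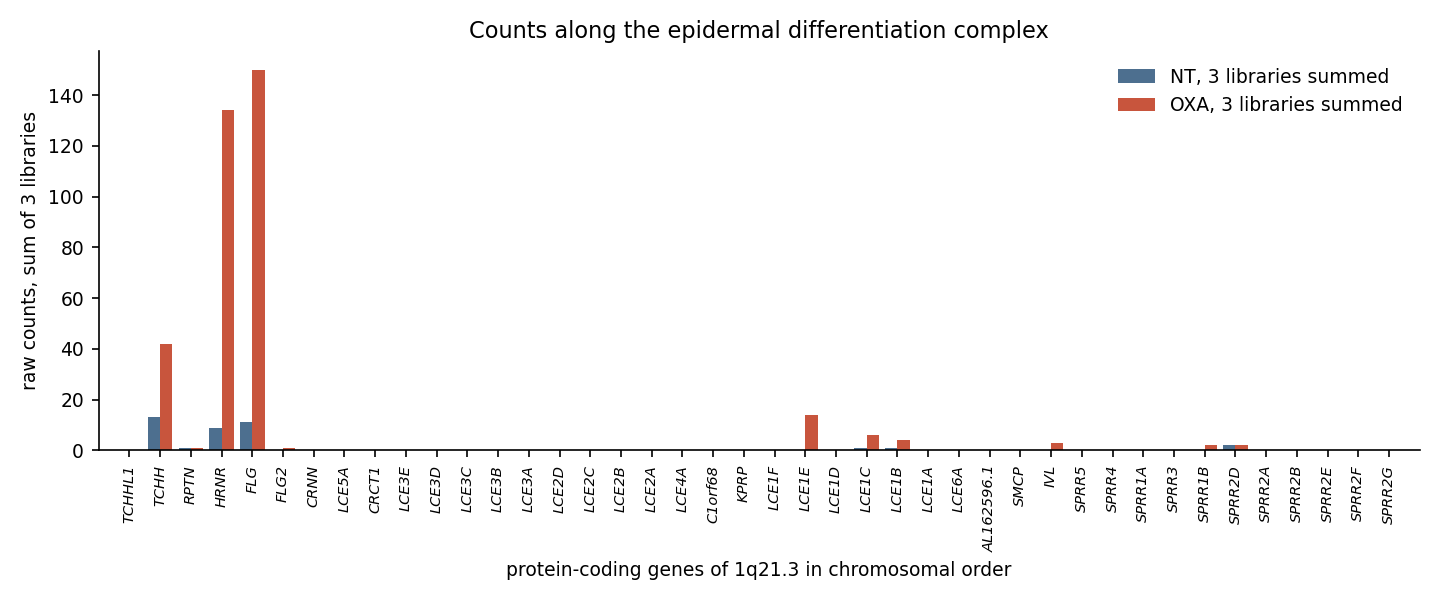
Raw counts summed over the 3 NT (blue) and the 3 OXA (red) libraries (y axis, bars from 0) for the 42 protein-coding genes from TCHHL1 to SPRR2G in chromosomal order (x axis). HRNR and FLG reach 134 and 150 counts in OXA, TCHH 42 and LCE1E 14, and most other genes have no bar because they are at 0.

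The rest of the epidermal programme was described by 9 lists of 133 genes in the table that are not members, written from general knowledge with earlier results of these data known. Of these, 43 had 0 counts in all libraries and 60 could be tested. In OXA, 5 of the 60 rose (edgeR adjusted p under 0.05) and 0 fell, against 2.78% and 2.29% of all tested genes. With the replicate block, 11 were higher and 4 lower, against 12.1% and 10.9%. The 60 genes' median log2 fold change was 0.11 against 0.023 over all tested genes. The 5 belonged to the barrier lipid genes and to the regulators. None of the other 5 fused-type S100 genes or of the other 30 precursor genes of the complex passed the filter on low counts, and 2 and 26 of them were at 0 in all libraries.

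Among the genes for the lipid barrier that surrounds cornified cells, 2 of 10 tested rose and 0 fell, against 2.78% and 2.29% of all tested genes. ABCA12, the lipid transporter that loads the lamellar granules of keratinocytes, had 37, 41 and 44 raw counts untreated and 469, 373 and 423 after oxaliplatin. The groups were far apart and tight, and the log2 change was 3.42 ± 0.18 (SE, adjusted p by edgeR 0.000445). ABCA12 passed in each of the 6 fits that left out 1 library. ALOXE3, a lipoxygenase that acts on the ceramides of this barrier, had 153, 195 and 189 raw counts untreated and 301, 332 and 367 after oxaliplatin (log2 change 0.93 ± 0.15 SE, adjusted p by edgeR 0.0186). It passed in 2 of the 6 fits, those without NT replicate 1 or 2, and its edgeR adjusted p in the others reached 0.0955. UGCG, which makes glucosylceramide and was the most abundant gene of the list, had a log2 change of -0.0032 ± 0.11 (SE, adjusted p by edgeR 0.992).

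Of 22 tested regulators of epidermal differentiation, 3 rose and 0 fell, against 2.78% and 2.29% of all tested genes. With the replicate block 5 were higher and 2 lower, against 12.1% and 10.9% of all tested genes. KLF4 and VDR were added to the higher ones and GRHL1 and GRHL2 were lower (named after their values were seen). DESeq2 also called GRHL1 lower. GRHL1, a grainyhead factor of surface epithelia, had 557, 550 and 565 raw counts untreated and 393, 374 and 420 after oxaliplatin (edgeR adjusted p = 0.0720, and 0.0166 with the block). PRDM1, which encodes the repressor BLIMP1, had 72, 92 and 62 raw counts untreated and 211, 193 and 190 after oxaliplatin (log2 change 1.43 ± 0.24 SE, adjusted p by edgeR 0.0186). ELF3, an epithelial ETS factor, had 923, 1554 and 1622 untreated and 2540, 2873 and 3246 after oxaliplatin (log2 change 1.12 ± 0.19 SE, adjusted p by edgeR 0.0210). In both genes the treated libraries were all above the untreated ones. PRDM1 and ELF3 each passed in the fits without NT replicate 1 or 2 and not in the other 4, where the edgeR adjusted p reached 0.0992 for PRDM1 and 0.0944 for ELF3. EHF, the most abundant regulator, had a log2 change of 0.12 ± 0.21 (SE, adjusted p by edgeR 0.798).

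**Figure D4:**
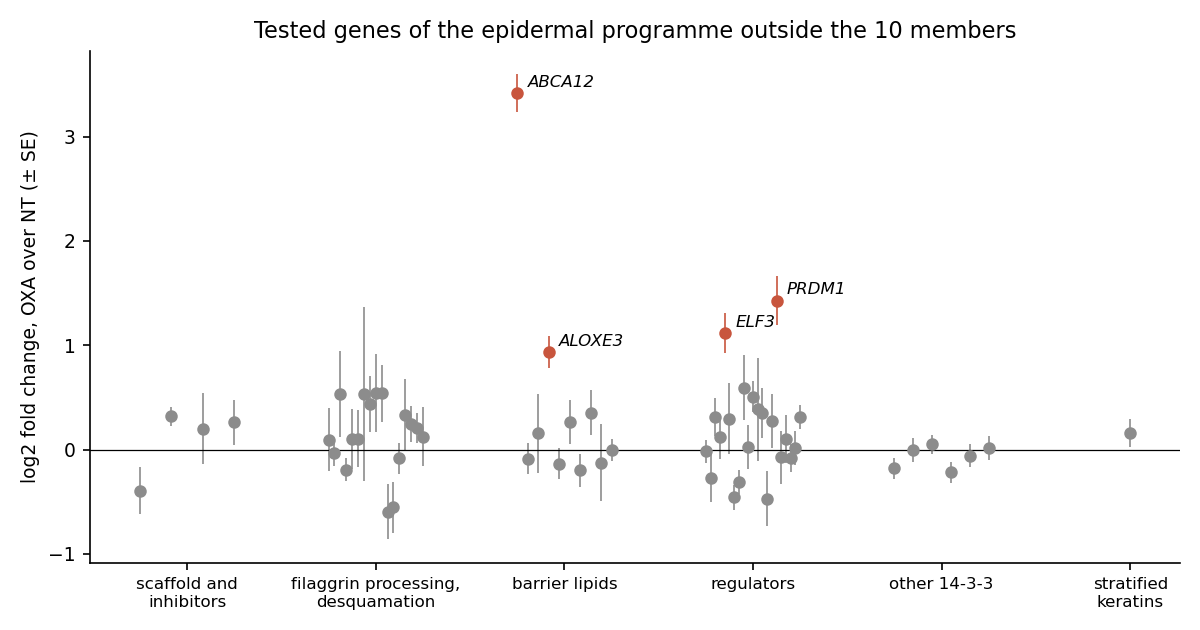
Log2 fold change of OXA over NT (y axis) with its standard error for tested genes of the epidermal programme outside the 10 members, grouped by list (x axis; 1 of the 60 is not shown); red points have an edgeR adjusted p under 0.05. ABCA12 stands at 3.42, PRDM1, ELF3 and ALOXE3 lie between 0.93 and 1.43, and the other genes are spread around 0.

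Around filaggrin itself, no gene passed. Of 17 tested genes for filaggrin processing and desquamation, 0 passed the threshold in either direction by edgeR, 0 had an unadjusted p under 0.05, and the DESeq2 test called none. SPINT2, the most abundant of them and an inhibitor of surface proteases, had a log2 change of 0.21 ± 0.15 (SE, adjusted p by edgeR 0.462). With the replicate block, 3 kallikrein proteases (KLK6, KLK7 and KLK8, named after their values were seen) were called higher and the arginine deiminase gene PADI2 lower. The block called 12.1% of all tested genes higher and 10.9% lower, so these calls are no result about the 17 genes. KLK7 had 828, 1037 and 2338 raw counts untreated and 1398, 1430 and 3191 after oxaliplatin, so that replicate 3 was the highest in both groups (edgeR adjusted p with the block 0.0115). Of the 4 tested scaffold and inhibitor genes 0 passed. The most abundant, DMKN, which encodes dermokine, had a log2 change of 0.32 ± 0.092 (SE, adjusted p by edgeR 0.0931, and 0.0189 with the block).

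The other 6 14-3-3 genes were all abundant. Their log2 fold changes lay between -0.22 and 0.050, and 0 of 6 passed by edgeR or by DESeq2, nor did any have an unadjusted p under 0.05. YWHAZ, the most abundant, had 82354 ± 10090.5 normalized counts (SD, n = 3) untreated and 83166 ± 6535 treated (log2 change 0.014 ± 0.12 SE, adjusted p by edgeR 0.962). YWHAH was called lower with the replicate block alone (edgeR adjusted p = 0.0306), as were 10.9% of all tested genes with the block. Of 11 keratin genes of stratified epithelia, only KRT10 passed the filter on low counts, with a log2 change of 0.16 ± 0.13 (SE, adjusted p by edgeR 0.543).

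Below the filter, 30 of the 133 genes had some counts. In 10 of them all treated libraries were above all untreated ones, against 4.43% of all genes with a count under the filter. In 0 of the 30 was it the reverse, against 3.31%. These shares include genes with too few counts for the groups to separate, so they are not matched for level. The lists were written with earlier results known, so the counts are a description and no test. Besides TGM5, TCHH and LCE1E the 10 genes were KRT6A, KRT16, KRT17, SCEL, ZNF750, LY6D and KLK11, named after their values were seen. KRT16, a keratin of activated keratinocytes, had 1 raw count in each NT library and 12, 10 and 9 in OXA. KRT17 had 1, 3 and 0 untreated and 9, 13 and 9 after oxaliplatin.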

How the data were processed

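RNA-seq counts of 3 NT and 3 OXA libraries were analysed. The authors mapped paired reads to GRCh38 with STAR and normalized with DESeq2, and deposited a table with the raw count of each gene in each library beside its normalized signal. The submitters' processing notes name Trimmomatic 0.32, STAR 2.7.5b and RSEM 1.3.3. Which program counted, its annotation and its strand setting are not given in the sources used here. The deposited counts, all whole, entered the fits unchanged. The normalized signal, a count times a factor that differs between genes, was not used.

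Genes were filtered with filterByExpr (minimum count 10, minimum total 15), which left 13727, scaled by TMM and compared by the quasi-likelihood test of edgeR 4.0.16. P-values were adjusted by Benjamini and Hochberg's method across these genes, with a threshold of 0.05. DESeq2 1.42.0 and limma 3.58.1 (voom), run in R 4.3.3, served as alternatives, beside other scalings and filters, the replicate block and fits leaving out 1 library. Normalized counts are counts scaled to the mean TMM library size. Standard errors are the estimate over the root of F. Intervals of ratios of summed counts are exact (Clopper-Pearson) and, like the floor of 3 counts, cover counting error only, since PCR duplicates were not distinguishable. GENCODE release 44 (GRCh38) supplied positions, GC content and exon lengths, and held 99.1% of the gene identifiers. Promoters are from RefSeq. The fit was tested on simulated data that held no shared deviations of same-numbered libraries and no outlying library. That test does not cover these features of the data.

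Deviations from the group means were shared by libraries of the same number (correlations of 0.55, 0.54 and 0.31, all over the limit of 0.1, against -0.47 to 0.090 for other pairs), so the numbers, which come from the labels, were treated as pairs in an alternative fit. No 2 libraries agreed within counting error. Members and lists were chosen with earlier results of these data known. Named are all members and, from each list, the genes past the threshold (at most 5) and the most abundant gene, plus, for members with a mean of at least 50 normalized counts, the 3 genes with the most similar profile. Of the genes past the threshold, 1 is counted but not reported here. P-values measure the spread between these libraries, which may be technical.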

Additional observations from a re-analysis of the deposited data

How the results depend on the processing

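The counts of calls depended on the fit. With DESeq2, 604 genes were higher and 571 lower in OXA in place of 381 and 315 by edgeR, and 1 gene of the epidermal lists, GRHL1, was lower. With the replicate block, 1664 were higher and 1493 lower, and of the epidermal lists 11 genes were higher and 4 lower, in place of 5 and 0. The block added SFN to the called members and changed no other member's call. With upper quartile factors, 493 genes were lower and 348 higher, so that 41.4% of the calls were higher in place of 54.7%. The median log2 fold change moved by 0.039 or less under any scaling tried. Under the stricter filter, which FLG and HRNR did not pass, 0 members were called. Leaving out 1 library gave 66 to 623 genes higher and 19 to 571 lower, both lowest without OXA replicate 1 and highest without NT replicate 1, 1 to 3 members higher, and 1 to 6 genes of the epidermal lists higher. Only ABCA12 of these lists was called without NT replicate 3 or without any 1 of the OXA libraries.

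Each of the 6 fitted members kept its log2 fold change within 1 SD of the replicates under every alternative that could be fitted, except HRNR without NT replicate 3. Among the named genes outside the members, small values changed sign without a call. With 1 library left out, UGCG ranged from -0.10 (without NT replicate 2) to 0.063 (without OXA replicate 2), with 0.055 without NT replicate 1, EHF from -0.12 (without OXA replicate 3) to 0.28 (without NT replicate 3), with -0.053 without NT replicate 2, and YWHAZ from -0.075 (without NT replicate 2) to 0.12 (without NT replicate 1), and YWHAZ was also at -0.027 with upper quartile factors and -0.016 without a filter. The causes were not tested. Members under the filter, at 0 to 3 counts per library, could not be compared at this depth.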

Other observations

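For the 3 members with a mean of at least 50 normalized counts, the genes with the most similar profile over the 6 libraries were looked up by Pearson's r of log2 CPM, as a description without a test. SFN was most similar to KRT19 (r = 0.9995), which encodes a keratin of simple epithelia, to ITGA3 (r = 0.999), which encodes an integrin chain that binds laminin, and to BTBD9 (r = 0.9989). All 3 share the low value of NT replicate 1, but they differ in size, with log2 fold changes of 1.29 (standard error 0.32), 1.00 (standard error 0.23) and 0.27 (standard error 0.11). In all, 484 genes had an r over 0.95 with SFN. TGM2 was most similar to SMIM10L2A, ESS2 and VPS18, and CNFN to ZBTB48, DVL3 and KXD1, with r between 0.9945 and 0.9964. The 6 points share their depth and base composition effects, and NT replicate 1 is the lowest library in all 3 members.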
